A study of Mus musculus with 5 samples.

Results

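The cytosolic ribosomal protein genes were taken from the expression table of the mouse atrioventricular canal (AVC) as all rows whose symbol is Rpl or Rps with a number and at most 1 further letter (a, l, x or y), or is Rplp0, Rplp1, Rplp2 or Rpsa. The rule found 79 of the 14697 transcripts, 47 of the large and 32 of the small subunit, with 1 row for each gene. The AVC is the part of the embryonic heart between atria and ventricles in which the valve cushions form, and SOX9 is a transcription factor of the cushion mesenchyme. RNA was sequenced from pooled AVCs of C57BL/6 embryos at embryonic day 12.5. The control group carried floxed Sox9 alleles without Cre (Sox9fl/fl:+/+, labelled WT), and the other group carried the same floxed alleles with 1 Tie2-Cre transgene (Sox9fl/fl:Tie2-Cre/+, Sox9 cKO), so the groups also differ in the presence of Cre. Recombination by Tie2-Cre takes place in the endothelium, in cells that arise from it such as many of the mesenchymal cells of the cushions, and also in blood, while the myocardium of the dissected tissue keeps its Sox9 alleles. The labels state 2 libraries per genotype, and the table gives 1 merged value per genotype. No spread between replicates is therefore known, no test was possible, and every comparison below is one of size.

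A ribosome has a small subunit, which binds the mRNA and reads its codons, and a large subunit, which joins the amino acids and holds the tunnel through which the new protein leaves. Each subunit is built in the nucleolus from ribosomal RNA and a fixed set of proteins, nearly all present once in each ribosome. Most mRNAs of these proteins begin with a run of C and T at the 5′ end, the terminal oligopyrimidine (TOP) tract, through which growth signals regulate their translation. Ribosomal protein genes have also given rise to many processed pseudogenes, copies of their mRNAs in the genome.

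The start-site windows of the genes with the highest and lowest cKO to WT ratios, and of 2 genes of very high level, are given here. Each window runs from 20 bases before to 20 bases from the annotated start on, in RefSeq's table for GRCm38.p6. The capitals mark the longest run of C and T that reaches into the 10 bases on either side of the start. Such a run can be short or lie wholly before the start, outside the mRNA, as in Rpl11. A marked run is therefore not by itself a TOP tract.
Rpl36a: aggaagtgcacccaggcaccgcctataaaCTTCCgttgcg
Rpl34: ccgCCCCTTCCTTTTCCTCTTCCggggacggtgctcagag
Rps27: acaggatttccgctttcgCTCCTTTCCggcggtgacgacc
Rps10: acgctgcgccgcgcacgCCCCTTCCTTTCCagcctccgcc
Rpl35: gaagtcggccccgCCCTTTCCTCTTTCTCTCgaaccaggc
Rpl11: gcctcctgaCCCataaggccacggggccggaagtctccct
Rps16: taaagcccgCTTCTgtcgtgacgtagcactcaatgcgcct
Rps28: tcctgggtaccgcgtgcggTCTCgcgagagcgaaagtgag
Rps9: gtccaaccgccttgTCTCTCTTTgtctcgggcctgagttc
Rpl41: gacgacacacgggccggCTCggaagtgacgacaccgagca

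These windows lie at chrX:134585634-134585673 (Rpl36a, plus strand), chr3:130730318-130730357 (Rpl34, minus strand; the start with the longer run of 2 annotated ones), chr3:90213629-90213668 (Rps27, minus), chr17:27635225-27635264 (Rps10, minus), chr2:39005112-39005151 (Rpl35, minus), chr4:136053374-136053413 (Rpl11, minus), chr7:28350669-28350708 (Rps16, plus), chr17:33824543-33824582 (Rps28, minus), chr7:3704021-3704060 (Rps9, plus) and chr10:128549149-128549188 (Rpl41, minus). Of 59 ribosomal protein genes with a window in that table, 28 (47.5%) had a run of at least 8 C or T there, against 15.8% of 27025 genes of the whole reference table and 17.1% of 10431 genes that also have a row in the expression table. Rpl35, which had the lowest ratio, had a run of 18 bases, and Rpl34, among the highest, one of 20 bases. The 28 genes with a run had a median relative log2 ratio (defined below) of 0.17, and the 30 without one that could be given a ratio had 0.15. The letters CCGGAAG, the core of sites for ETS-family factors, were searched on both strands of the 300 bases from 250 before to 50 after the start. They were present in 26 of the 59 genes (44.1%), against 9.93% of all genes and 18% of genes in the expression table. The members holding them had a median relative log2 ratio of 0.24 (25 genes) and those without 0.13 (33 genes). The letters AAGATGG, found in sites of the factor YY1, were in 9 of the 59 genes (15.3%). They were in 7.28% of all genes and 7.74% of genes in the expression table. For 2 letter strings bound by SOX proteins, AACAAT was in 2 (3.39%, against 12.2% of all genes and 7.42% of genes in the expression table) and ACAAAG in 7 (11.9%, against 21.0% and 16.9%). Annotated starts can lie several bases from the base where transcription begins, and a match of letters is not a measured site.

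All 80 proteins of the cytosolic ribosome had a row in the table, 77 of them under the rule. Those outside the rule include Fau, which encodes a ribosomal protein fused to a ubiquitin-like protein, and Gnb2l1 (now Rack1), a scaffold on the small subunit. The rule also took in 2 genes outside the 80, Rpl39l and Rps27l, paralogues of Rpl39 and Rps27. Levels are in nFPKM, the authors' normalized FPKM, a unit of fragments scaled by transcript length and library size. Levels in WT of the 79 rows ran from 0.607 nFPKM (Rpl39l) to 2545 nFPKM (Rpl41), with a median of 74.2 nFPKM. Among the 77 rows of the cytosolic ribosome the highest was 2359 times the lowest, which was Rps13 at 1.08 nFPKM. Reads of genes with near-identical copies can fit more than 1 place, and how such reads were assigned is a step not given in the sources used here, so levels of members with pseudogenes or close paralogues are uncertain.

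**Figure D1:**
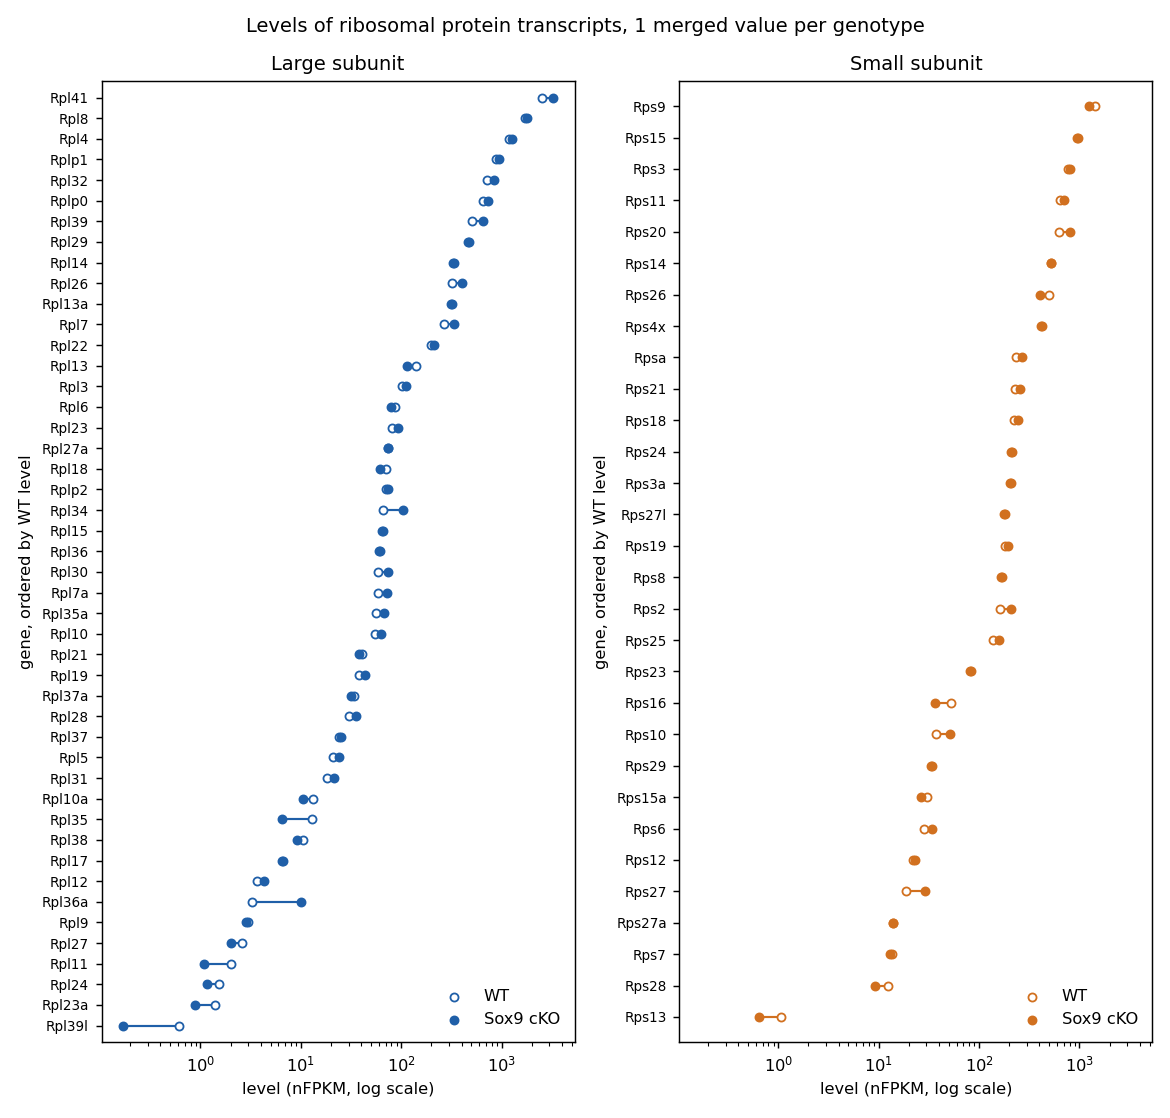
Levels of the ribosomal protein transcripts reported here, in nFPKM (log scale), with 1 merged value for WT (open circles) and 1 for Sox9 cKO (filled circles), large subunit on the left and small subunit on the right, ordered by WT level. Levels span more than 3 powers of 10 while both values of most genes lie close together; Rpl36a, Rpl35, Rpl11 and Rpl39l, all at low levels, have the widest gaps.

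At the top of the order in WT stood Rpl41, which encodes a very short, basic protein of the large subunit, with 2545 nFPKM in WT and 3263 in cKO. Also among the highest were Rpl8 with 1716 and 1776 nFPKM, Rps9 with 1426 and 1245 and Rpl4 with 1187 and 1262. Of these 4 genes, Rps9 alone had a lower value in cKO. The 10 highest rows held 58.5% of all ribosomal protein nFPKM in WT and 59.0% in cKO, and 9 genes were among the 10 highest in both. With 1 value per genotype, the order of close neighbours such as Rpl14 and Rpl26 cannot be told from chance variation.

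At the bottom, 12 of the 79 members had a mean of both genotypes under 10 nFPKM, 31 stood between 10 and 100, and 36 at 100 or more. Of the lowest 12, 11 belonged to the large subunit (Rpl9, Rpl11, Rpl12, Rpl17, Rpl23a, Rpl24, Rpl27, Rpl35, Rpl36a, Rpl38 and Rpl39l) and 1 to the small (Rps13). Rpl11, which binds 5S ribosomal RNA with Rpl5 and, when ribosome assembly fails, restrains the p53 regulator Mdm2, had 2.02 nFPKM in WT and 1.09 nFPKM in cKO, while Rpl5 stood at 21.0 and 24.1. Rpl23a, at the exit of the peptide tunnel, stood at 1.41 and 0.885 nFPKM. The median WT level was 61.4 nFPKM in the large and 176 nFPKM in the small subunit. These are listed levels, uncertain for members with copies, and the part of shared reads in this difference was not tested.

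The order of levels was nearly the same in both genotypes. Across the 79 genes, Spearman's rho between WT and cKO levels was 0.995 (a description across genes, which are not replicates and share the same libraries). The level varied with the number of named pseudogenes in the reference table, where 62 of the 79 genes had at least 1 and 318 were named in all. The 17 genes with no named pseudogene had a median WT level of 231 nFPKM, the 38 with 1 to 4 had 71.0 and the 24 with 5 or more had 59.0 (rho between level and number, -0.34). Rpl31, with 24 named pseudogenes, stood at 18.2 nFPKM in WT, and Rps12, with 23, at 22.2, whereas Rpl8, Rps9, Rpl4 and Rpl41 had none. Rpl11 and Rpl24 (1.53 nFPKM in WT) had none either and were among the lowest. Predicted pseudogenes under other symbols were not counted, and the part of shared reads in these levels was not tested.

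The RNA libraries were made to find genes of the AVC whose expression depends on Sox9. As a group, ribosomal protein transcripts stood slightly higher in cKO relative to other transcripts. Ratios of cKO to WT were taken on the log2(nFPKM + 1) scale, over the 13793 transcripts that reached 1 nFPKM in one genotype or both, among them 78 of the 79 members (all but Rpl39l). Each is given relative to the median over all these transcripts, -0.11, as the relative log2 ratio, and adding 1 understates the ratio of low genes. The median relative log2 ratio of the 78 members was 0.17, with quartiles of 0.06 and 0.30. Over all transcripts the quartiles were -0.15 and 0.15, and the median over 1603 transcripts with a mean of at least 100 nFPKM was 0.05. Of the 78 members, 61 stood above the all-transcript median (78.2%), against 50% of all transcripts. The summed nFPKM of all 79 was 21623 in WT, 2.25% of the table, and 23483 in cKO, 2.44%.

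By a rule of 1.2-fold on this relative scale, 25 of the 78 members were higher in cKO (32.1%), where 14.4% of all transcripts were, and 4 were lower (5.13%), where 13.1% of all transcripts were. A further 36 stood less than 1.2-fold above the median and 13 less than 1.2-fold below it. At 1.5-fold, 3 members were higher (background 3.44%) and 1 was lower (background 2.82%). By a 2-fold rule without centring, only Rpl36a was higher (background 0.595%) and none was lower (background 0.979%). The differences were thus many and small. Without centring, on the deposited nFPKM alone, the median log2 ratio of the members was 0.06, with 46 of 78 higher in cKO against 32% of all transcripts. The 1.2-fold rule then counted 13 members higher and 9 lower, so that the higher ones made up 59.1% of those counted instead of 86.2%. The background also moved, with 8.73% of all transcripts higher and 23.8% lower.

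**Figure D2:**
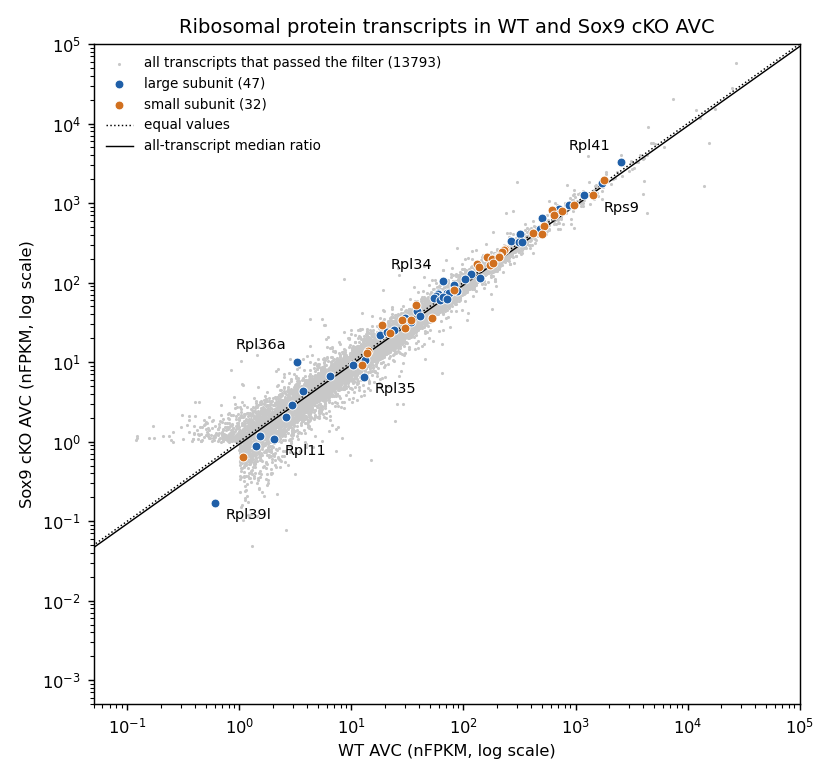
Level in Sox9 cKO against WT in nFPKM (log scales), for all 13793 transcripts that passed the filter (grey) and for the 47 large and 32 small subunit genes (blue and orange); each point is 1 transcript. The dotted line marks equal values and the solid line the all-transcript median log2 ratio of -0.11; most ribosomal protein genes lie a little above the solid line, with Rpl36a farthest above and Rpl35 farthest below among those that passed.

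Among transcripts with a mean of at least 100 nFPKM, the difference was seen in most members. Of 36 such ribosomal protein genes, 33 stood above the all-transcript median (62.3% of the 1603 transcripts in this class did), 10 were higher by 1.2-fold or more (12.9% of the class) and 0 lower by as much (5.24% of the class). Their median was 0.21. The 31 members from 10 to 100 nFPKM had a median of 0.16, and the 11 under 10 nFPKM that passed the filter had a median of -0.11. The 2 members with the largest differences, Rpl36a and Rpl35, lay in this lowest class, where ratios were also most variable (SD over genes 0.57, against 0.17 at 100 nFPKM or more).

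The large subunit had a median relative log2 ratio of 0.19 over 46 genes and the small subunit one of 0.13 over 32 genes, a difference of 0.05. In the large subunit, 35 of 46 stood above the all-transcript median (76.1%), 17 were higher by 1.2-fold or more (37.0%) and 2 lower (4.35%). In the small subunit, 26 of 32 stood above it (81.25%), 8 were higher by 1.2-fold or more (25%) and 2 lower (6.25%). Over all transcripts these shares were 50%, 14.4% and 13.1%. With no replicate values, a difference of this size between the subunits cannot be told from variation between libraries. Summed levels differed more. The large subunit went from 11558 nFPKM in WT to 13070 in cKO and the small from 10066 to 10413. Rpl41 alone made up 38.6% of the difference of 1860 nFPKM in the sum of both.

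Of the proteins of the stalk, the arm of the large subunit that recruits elongation factors, all 4 stood above the all-transcript median. Rplp0, its base, had 659 nFPKM in WT and 734 nFPKM in cKO (0.26 as the relative log2 ratio, as in all such brackets here). Rplp1 (883 and 953 nFPKM, 0.21) and Rplp2 (70.9 and 74.8 nFPKM, 0.18) encode the acidic proteins that pair with each other on it, and the level of Rplp1 in WT was 12.5 times that of Rplp2. Rpl12, which binds at the foot of the stalk, stood at 3.68 and 4.31 nFPKM (0.29). The pair that carries 5S ribosomal RNA was divided, with Rpl5 at 0.30 and Rpl11 at -0.43. Of the pair, Rpl11 had a mean under 10 nFPKM, where ratios were most variable.

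Around the exit of the peptide tunnel, 5 of 7 genes stood above the all-transcript median. Rpl39, a small protein that lines the tunnel, had 506 nFPKM in WT and 652 nFPKM in cKO (0.47). Rpl26 (319 and 406 nFPKM, 0.45), Rpl31 (18.2 and 21.7 nFPKM, 0.35), Rpl19 (38.4 and 43.9 nFPKM, 0.29) and Rpl17 (6.47 and 6.69 nFPKM, 0.15) were the others above it. Rpl35, their neighbour at the exit, had the lowest ratio of all members that passed, with 12.9 and 6.56 nFPKM (-0.78). In the authors' deposited table its log2 fold change is -0.82. Rpl23a stood at -0.25. The values thus did not go one way among neighbours in the ribosome. Both genes below the median, Rpl35 and Rpl23a, had means under 10 nFPKM, where ratios were most variable, as had Rpl17 above it.

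Outside these sites, the highest ratio of all members was that of Rpl36a, a large subunit protein, with 3.30 and 10.1 nFPKM (1.47). The authors' deposited table gives it a log2 fold change of 1.56. Rpl34 followed with 66.0 and 103 nFPKM (0.74). Rpl41 (0.46), Rpl7 (265 and 336 nFPKM, 0.45), Rpl30 (0.44), Rpl7a (0.39), Rpl35a (0.36), Rpl32 (716 and 843 nFPKM, 0.34), Rpl28 (0.32), Rpl10 (0.30) and Rpl23 (0.29) were also past 1.2-fold. On the lower side stood Rpl10a (-0.19), Rpl13 (141 and 116 nFPKM, -0.18), Rpl27 (-0.15), Rpl24 (-0.11), Rpl18 (-0.09), Rpl38 (-0.06), Rpl6 (-0.03) and Rpl21 (-0.01). Further large subunit genes (Rpl3, Rpl4, Rpl8, Rpl9, Rpl13a, Rpl14, Rpl15, Rpl22, Rpl27a, Rpl29, Rpl36, Rpl37 and Rpl37a) ran from 0.03 to 0.21.

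In the small subunit, Rps27 had the highest ratio, with 18.7 nFPKM in WT and 29.0 in cKO (0.71), followed by Rps10 with 37.4 and 51.5 nFPKM (0.56). Rps20 stood at 620 and 809 nFPKM (0.49). Of the 3 proteins at the entry of the mRNA channel, Rps2 (161 and 209 nFPKM) stood at 0.48, Rps3 (765 and 803 nFPKM) at 0.18 and Rps9 at -0.09. Rps6, the protein phosphorylated by S6 kinase, stood at 28.5 and 34.3 nFPKM (0.36), and Rpsa, also known as the laminin receptor precursor, at 233 and 268 nFPKM (0.31). The lowest was Rps16 with 52.5 and 36.3 nFPKM (-0.42), then Rps28 with 12.3 and 9.14 nFPKM (-0.29). Rps13 (-0.24), Rps26 (501 and 405 nFPKM, -0.20) and Rps15a (-0.07) were the others below the all-transcript median. The other small subunit genes reported here ran from 0.02 (Rps7) to 0.29 (Rps25).

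In humans, mutations in several ribosomal protein genes cause Diamond-Blackfan anaemia, a failure of red cell production. Of 10 mouse counterparts of such genes, a list that is not complete, 8 stood above the all-transcript median (78.2% of all members did). By the 1.2-fold rule 5 were higher (50%, against 32.1% of all members and 14.4% of all transcripts). Among them were Rps10, Rpl26, Rpl35a and Rpl5. Rpl11 was the 1 lower (10%, against 5.13% of all members and 13.1% of all transcripts). Rps19, the gene first tied to the disease, stood at 180 and 196 nFPKM (0.23). The median of the 10 was 0.26, beside 0.17 for all members. Members tied to the disease but left off the list were not counted, so the 10 do not stand for all its genes.

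Paralogues and named copies were listed at levels that differed from their parent genes in both directions. Rpl36al, a near-identical relative of Rpl36a, had 215 nFPKM in WT and 222 nFPKM in cKO (0.15), 65.2 times the level of Rpl36a in WT and 22.0 times in cKO. When both were summed, the relative log2 ratio was 0.19, so the large ratio of Rpl36a concerned a small part of their joint signal. Likewise Rps27l, a relative of Rps27 induced by p53 in human cells, stood at 184 and 178 nFPKM (0.06), and its sum with Rps27 had a ratio of 0.14. Rpl22l1 stood at 127 and 134 nFPKM (0.18) beside Rpl22 at 199 and 210 nFPKM (0.19). Rpl39l, known from mouse testis, was at 0.607 and 0.170 nFPKM, and Rpl7l1, a Rpl7-like protein, at 66.1 and 59.3 nFPKM (-0.05).

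Some copies stood above their parents. Rpl37rt, listed as a protein-coding gene with the synonym Rpl37 in the reference table, had 1095 nFPKM in WT and 1012 in cKO, beside 23.8 and 25.04 for Rpl37. Rpl14-ps1, a transcribed pseudogene, had 889 and 989 nFPKM beside 334 and 328 for Rpl14. Rps15a-ps4 (34.8 and 38.8 nFPKM) and Rps15a-ps6 (42.1 and 47.0 nFPKM) were also above Rps15a (30.1 and 26.6 nFPKM), while Rps19-ps3 (9.61 and 6.06 nFPKM) was far below Rps19. For Rps15a the parent stood at -0.07 and both copies at 0.26, and for Rpl14 the parent at 0.08 and the copy at 0.26. The opposite order was seen for Rpl37 (parent 0.18, Rpl37rt -0.01) and Rps19 (parent 0.23, Rps19-ps3 -0.48). Summed with its copy, Rpl37 stood at -0.00, Rpl14 at 0.21 and Rps19 at 0.20. Rps4y2, which the reference table names Rps4l and lists as a transcribed pseudogene, had 199 and 138 nFPKM (-0.42), while Rps4x had 418 and 421 nFPKM (0.12), and their sum stood at -0.04. The X-linked members with a start window were Rps4x, Rpl10, Rpl36a and Rpl39 (0.12, 0.30, 1.47 and 0.47).

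**Figure D3:**
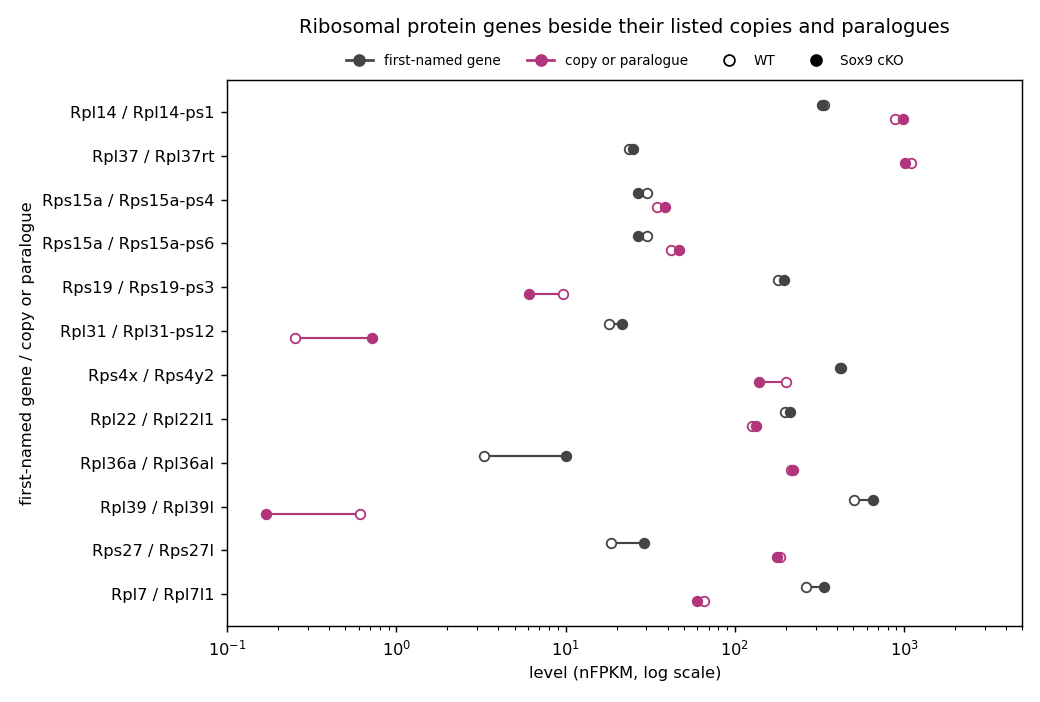
Levels in nFPKM (log scale) of ribosomal protein genes (grey) and of their listed copies or paralogues (magenta), in WT (open circles) and Sox9 cKO (filled circles), 1 merged value each. Rpl37rt, Rpl14-ps1, Rpl36al and Rps27l lie to the right of the genes they resemble, and Rps19-ps3, Rpl31-ps12 and Rpl39l lie far to the left.

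Of the ribosome proteins outside the rule, Fau had 15.3 nFPKM in WT and 18.8 nFPKM in cKO (0.39) and Gnb2l1 had 1523 and 1680 nFPKM (0.25).

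Other genes of translation stood at different places. Of 19 other transcripts known to carry a TOP tract, 18 stood above the all-transcript median, with a median of 0.19. Of these 19, 4 were at least 1.2-fold higher (21.1%, against 14.4% of all transcripts). Among them Tpt1, a growth-related protein, had 27.98 nFPKM in WT and 38.8 nFPKM in cKO (0.56), Pabpc1, the poly(A)-binding protein, at 428 and 512 (0.36) and Btf3, a subunit of the nascent polypeptide-associated complex, at 58.9 and 69.9 (0.35). Of 11 elongation and termination factors 0 passed 1.2-fold in either direction (14.4% higher and 13.1% lower over all transcripts), and their median was 0.14. Among these, Eef2, which moves the ribosome along the mRNA, stood at 1482 and 1628 nFPKM (0.24), Eef1a1, which delivers tRNA, at 3734 and 4021 (0.21) and Eef1a2, its muscle and nerve form, at 215 and 172 (-0.21). The TOP list shares Eef1a1, Eef1b2, Eef1d, Eef1g and Eef2 with it.

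Proteins of the mitochondrial ribosome, a separate machine that translates mitochondrial mRNAs, had a median of 0.03 over 71 genes. Of these, 38 stood above the all-transcript median. By 1.2-fold or more 3 were higher (4.23%) and 6 lower (8.45%), fewer than the 14.4% and 13.1% of all transcripts. Among those with a mean of at least 10 nFPKM, the largest differences were in Mrpl41 (28.4 and 17.8 nFPKM, -0.54), Mrpl22 (29.0 and 20.3, -0.39) and Mrpl50 (62.2 and 44.9, -0.36). Below that level, Mrps36 had 1.73 and 3.46 nFPKM (0.82). The 55 ribosome biogenesis factors that had a row, of 58 listed, had a median of -0.04, with 21 above the all-transcript median. Of them, 3 were higher by 1.2-fold or more and 3 lower (5.45% each), also below the shares of all transcripts. Nip7 (31.5 and 22.0 nFPKM, -0.39) and Rrs1 (32.1 and 23.5, -0.33) stood lowest and Nop10 (188 and 221, 0.34) highest. The 57 genes under Eif symbols had a median of 0.09. This list holds not only initiation factors but also eIF2 kinases and Argonaute genes under older Eif2c symbols, of which Eif2c2 stood at 51.6 and 70.5 nFPKM (0.55).

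**Figure D4:**
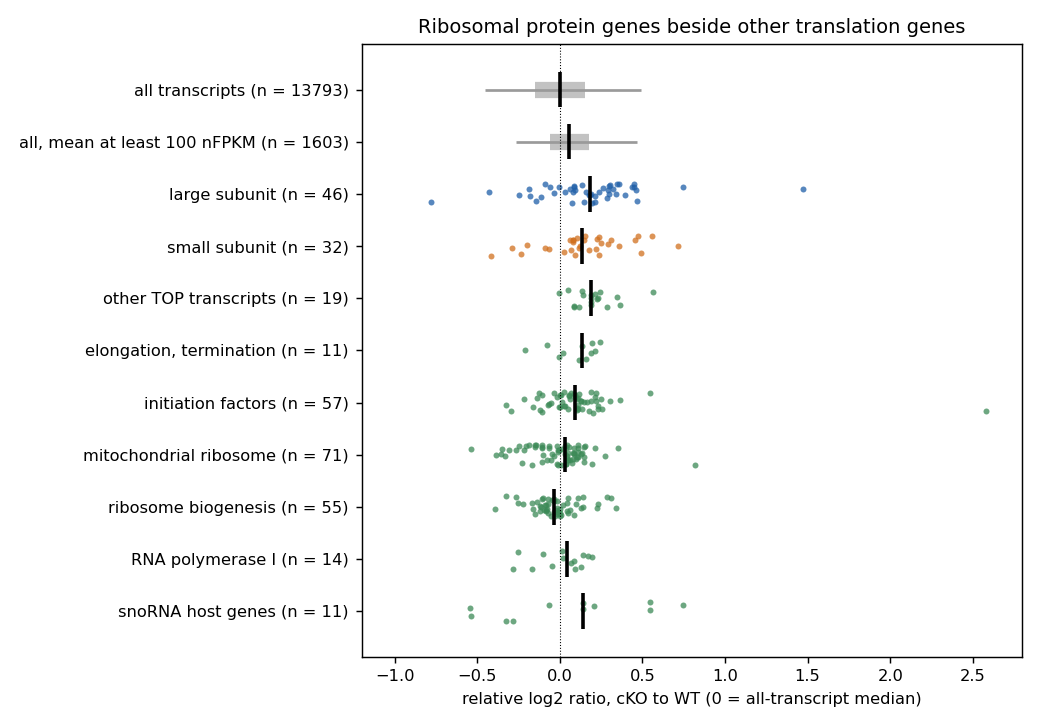
Relative log2 ratio of cKO to WT (0 is the all-transcript median) for all transcripts and the 1603 of at least 100 nFPKM (grey; thick bar, quartiles; thin line, middle 90%), for ribosomal protein genes and for other lists of translation genes; each point is 1 gene and black ticks are medians. The medians of the large subunit (0.19), small subunit (0.13) and other TOP transcripts (0.19) lie to the right of those of the mitochondrial ribosome (0.03) and ribosome biogenesis (-0.04). The outlying point of the Eif list is the Y-linked Eif2s3y.

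The pools differed in other genes in the same values. Sox9 had 36.7 nFPKM in WT and 14.7 nFPKM in cKO. All 12 erythroid markers with a row, of 15 listed, were above the all-transcript median, and their sum went from 41100 to 93237 nFPKM, or from 4.27% to 9.71% of the table. Without the globins, ribosomal protein genes made up 2.35% of the remaining nFPKM in WT and 2.71% in cKO. All 10 cushion mesenchyme markers were below the median (sum 3442 and 2148 nFPKM). Sox9, the floxed gene, is itself on this list, so its lower value is not a separate observation. Above the median stood 9 of 10 endothelial markers (907 and 1066) and 6 of 8 epicardial markers (299 and 378). So did 4 of 11 cardiomyocyte markers (36613 and 37823) and 3 of 9 macrophage markers (169 and 144). No listed marker with a row was at 0 in either genotype. Of the sex-linked genes, Ddx3y, Uty, Eif2s3y and Kdm5d were higher in cKO and Xist lower (175 and 71.6 nFPKM). The part of these differences in the ribosomal protein values was not tested, and in pooled tissue a different number of cells of a type and a different amount of RNA per cell cannot be told apart.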

How the data were processed

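RNA-seq values of 1 WT and 1 Sox9 cKO AVC sample were used. The authors deposited FPKM values per transcript, normalized further (nFPKM, per the file headers, by a step not stated) and merged over duplicate libraries, per the labels, with a log2 fold change of their own. The labels name 2 Illumina platforms for these data, and which libraries ran on which is not clear from them. TopHat2, Cufflinks, edgeR and the build mm9 are named, without versions or roles, per the submitters' processing notes. Read depth is unknown, and values were not converted to counts, so no intervals are given. Of 14697 transcripts, 904 under 1 nFPKM in both genotypes were left out of ratios. The members, gene lists and rules of size were chosen with earlier results of these data known. Every member could be named; of other lists, the 3 with the largest absolute ratio among genes of at least 10 nFPKM were named, and any other was chosen after its values were seen. Members were matched by accession to a RefSeq table of GRCm38.p6 (79 of 79), used for names, pseudogenes and start windows. Some genes are counted but not reported here by name. Peak lists, on mm9, were not used here. The steps were tested on simulated data. Values were computed in Python 3.11.15 with pandas 2.3.3, numpy 2.4.6 and scipy 1.17.1, and drawn with matplotlib 3.10.9.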

Additional observations from a re-analysis of the deposited data

How the results depend on the processing

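No paired analysis was possible because each genotype has 1 merged value. Of 89 recomputed values, 74 stayed within 0.05 (log2 or percentage points) or 1.5 times (counts) of those reported, 15 moved and 0 changed sign. Counts cannot change sign. The large minus small subunit difference (0.05) is about as large as this tolerance and cannot move with centring. For that difference, staying within 0.05 therefore says little. The same holds for the setting that kept 1 row per symbol, since each member has 1 row and the members could not change. Without centring, the medians were 0.060 for all members, 0.080 for the large and 0.029 for the small subunit. Then 13 members were at least 1.2-fold higher and 9 lower (8.73% and 23.8% of all transcripts were). With centring on transcripts of at least 100 nFPKM, the medians were 0.11, 0.13 and 0.080, and 18 members were higher and 6 lower (75% of those counted higher). With a pseudocount of 5, or at least 10 nFPKM as the mean, 2 members were at least 1.2-fold lower, the second from 67 members. Without globins, the rise in the ribosomal protein share was 0.36 percentage points instead of 0.20. The 16 members with no named pseudogene that passed were an alternative chosen after seeing the data. Their rise was 0.11 points, from fewer genes by construction. Of them, 3 were at least 1.2-fold higher (18.8%) and 2 lower (12.5%), near the 14.4% and 13.1% of all transcripts. Over all members these shares were 32.1% and 5.13%. Above the all-transcript median stood 11 of the 16 (68.8%), and their median was 0.14. Pseudocounts, filters and centring do not bear on the share. Leaving out a replicate could not be done on merged values. Depth is unknown, and genes at a few nFPKM are the least certain.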

Other observations

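The host genes of small nucleolar RNAs, whose introns hold guide RNAs for the modification of ribosomal RNA and whose transcripts often carry TOP tracts, were spread widely. Of 11 with a row, 6 stood above the all-transcript median. By at least 1.2-fold 3 were higher in cKO (27.3%) and 4 lower (36.4%), against 14.4% and 13.1% of all transcripts. Snhg12 (37.1 nFPKM in WT and 58.4 in cKO, 0.75), Snhg1 (106 and 145, 0.55) and Snhg6 (91.2 and 124, 0.54) stood highest, and Snhg8 (42.2 and 26.6, -0.54) and Snhg3 (66.0 and 42.0, -0.54) lowest. Gas5 had 73.5 and 65.0 nFPKM (-0.07).

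The 14 listed genes of RNA polymerase I and its factors, which transcribe ribosomal RNA, had a median relative log2 ratio of 0.04, with 9 above the all-transcript median. Ubtf, a factor that keeps ribosomal DNA open, had 78.3 and 59.5 nFPKM (-0.29), Taf1a at 13.7 and 10.5 (-0.26) and Polr1c at 55.9 and 59.7 (0.20).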
